A study of Arabidopsis thaliana with 16 samples.

Results

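Green fluorescent protein (GFP)-positive cells sorted from root tips of wox5 plants that carry pCYCD6:GUS-GFP, a reporter for the cortex endodermis initial (CEI), were compared with GFP-negative cells sorted from root tips of pWOX5:erGFP plants. The members are the 2 sorted populations that the labels give for this contrast, 8 samples of 16 in all, and every locus of the expression table, 33201 of 33201. The first population is called w5C6 (4 samples) and the second W5NS (4 samples), as in the labels. The other populations are C6, GFP-positive cells of pCYCD6:GUS-GFP without the wox5 mutation (4 samples), and W5S, GFP-positive cells of pWOX5:erGFP (4 samples), whose values stand beside those of w5C6 and W5NS below. All populations came from Arabidopsis thaliana seedlings grown for 5 days, of which about 1 mm of root tip was collected and digested to protoplasts before sorting.

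The root stem cell niche is built around the quiescent center, a small group of seldom dividing cells in which the homeodomain factor WOX5 is active. The CEI lies beside it and divides to found cortex and endodermis, under the GRAS factors SHORTROOT (SHR) and SCARECROW (SCR), which switch on the D-type cyclin CYCD6;1. The comparison asks which transcripts set cells marked by the CYCD6;1 reporter in wox5 apart from meristem cells without the WOX5 reporter. Several features limit the groups as models. In wox5 the reporter was described by the study as reaching into cortex and endodermal cells, so w5C6 holds more than the CEI. W5NS comes from another reporter line, was not sorted against the CYCD6;1 reporter and is a mixture of all other cells of the tip. Genotype, reporter line and sort differ together between w5C6 and W5NS, and their parts cannot be told apart.

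The table holds 1 value per locus and population, pooled by the authors over the 4 libraries, in FPKM, the number of fragments scaled by transcript length and by the depth of the library. No spread between replicates can be given, so no difference below has a test, and depth is unknown. Folds are ratios of FPKM + 1, which understates the difference of loci with low values. A locus is called higher or lower when the ratio is at least 4-fold and the higher population has at least 10 FPKM. No fold is given against a population in which a locus is listed at 0. The values sum to 907405 FPKM in w5C6 and 726062 FPKM in W5NS, and 3957 loci in w5C6 and 5560 loci in W5NS are listed at 0.

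By that rule 400 loci were higher in w5C6 (1.20% of all loci) and 138 were lower (0.416%). Of the 12241 loci that reached 10 FPKM in either population, 3.27% were higher and 1.13% lower, and 83.0% differed by less than 2-fold. The median log2 ratio over all loci was 0.11. The split between directions depends on scaling: with both populations brought to the same sum over nuclear loci, 257 loci were higher and 211 lower, so that the higher loci made up 54.9% of the calls in place of 74.3%. Among the 400 higher loci 326 were protein-coding with a single gene ID, and among the 138 lower loci 127 were. Of the 15 nuclear loci with the largest ratios, 14 belonged to light harvesting, the photosystems or the Calvin cycle. Among the 15 with the lowest ratios were WIP5, WOX5, IAA20, IAA33, WIP4 and RGF2, genes known from the stem cell niche and from auxin and peptide signalling. The rest of these 15 are not named here, and 3 of the 15 were listed at 0 in w5C6.

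The labels were first checked with the mutated gene. WOX5 was at 0.0865 FPKM in w5C6, against 18.4 in C6, 206 in W5S and 42.1 in W5NS. It was 39.7-fold lower in w5C6 than in W5NS, and W5NS, although sorted as reporter-negative, still had WOX5 transcript. The gene whose promoter drives the CEI reporter did not separate w5C6 from W5NS, although it was lower in W5S: CYCD6;1 was at 7.01 FPKM in w5C6, 9.75 in C6, 0.828 in W5S and 7.02 in W5NS. SHR, transcribed in the stele, was at 4.12 FPKM in w5C6 and 6.36 FPKM in W5NS.

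Genes of photosynthesis were the largest difference in w5C6. Light-harvesting proteins bind chlorophyll a and b around the photosystems, whose subunits move electrons from water to NADPH, and the Calvin cycle uses the products to fix carbon dioxide. These genes are known as leaf genes and are usually low in root tips. Over the 73 loci of the lists for light harvesting, photosystems and Calvin cycle, 59 were higher in w5C6 and none lower, beside 1.20% higher among all loci, and each of the 73 had more FPKM in w5C6 than in C6, W5S or W5NS. They summed to 9749 FPKM in w5C6, 798 in C6, 659 in W5S and 692 in W5NS, which is 1.07% of all FPKM in w5C6 and 0.0952% in W5NS.

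In light harvesting, 16 of 20 members were higher and the list's median log2 ratio was 5.44. CAB1, an antenna protein of photosystem II, had 720 FPKM in w5C6, 5.55 in C6, 0.0388 in W5S and 1.24 in W5NS. CAB2 had 367 FPKM in w5C6, 1.04 in C6, 0.982 in W5S and 0.131 in W5NS, a 325-fold difference between w5C6 and W5NS. CAB1, CAB2 and CAB3 are near-identical copies, so reads may be split among them unevenly. LHCB3, another photosystem II antenna protein, was at 307 FPKM in w5C6 and 4.94 FPKM in W5NS. Among the photosystem I antenna genes, LHCA2 was at 163 FPKM in w5C6 and listed at 0 in W5NS, and LHCA3 was 56.8-fold higher in w5C6, with 139 FPKM against 1.47 FPKM in W5NS. The highest W5NS value of the list was that of LHCA4, at 163 FPKM in w5C6, 13.1 in C6, 11.1 in W5S and 17.0 in W5NS. The 4 members that were not called, LHB1B1, LHCA5, LHCA6 and LHCB4.3, stayed below 10 FPKM in both populations.

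For the photosystems and electron transport, 29 of 32 members were higher, with a median log2 ratio of 4.35. Photosystem I subunits gave the largest ratios of this list. PSAL had 74.7 FPKM in w5C6, 0.667 in C6 and 0.0411 in W5NS, and was listed at 0 in W5S. PSAE-1 was 68.8-fold higher in w5C6, at 105 FPKM against 0.539 FPKM in W5NS. The oxygen-evolving subunit PSBO1 of photosystem II was at 172 FPKM in w5C6 and 5.06 FPKM in W5NS, and PSBR, the most abundant subunit gene of the list, was at 447 FPKM in w5C6 and 25.5 FPKM in W5NS. Along the chain that follows, PETC, the Rieske protein of the cytochrome b6f complex, was 18.4-fold higher in w5C6, and PETE2, a plastocyanin, was 22.3-fold higher. The gamma subunit gene ATPC1 of the chloroplast ATP synthase was at 33.1 FPKM in w5C6 and 0.798 FPKM in W5NS, whereas the delta subunit gene ATPD was at 55.2 FPKM in w5C6 and 20.7 FPKM in W5NS and was not called.

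**Figure D1:**
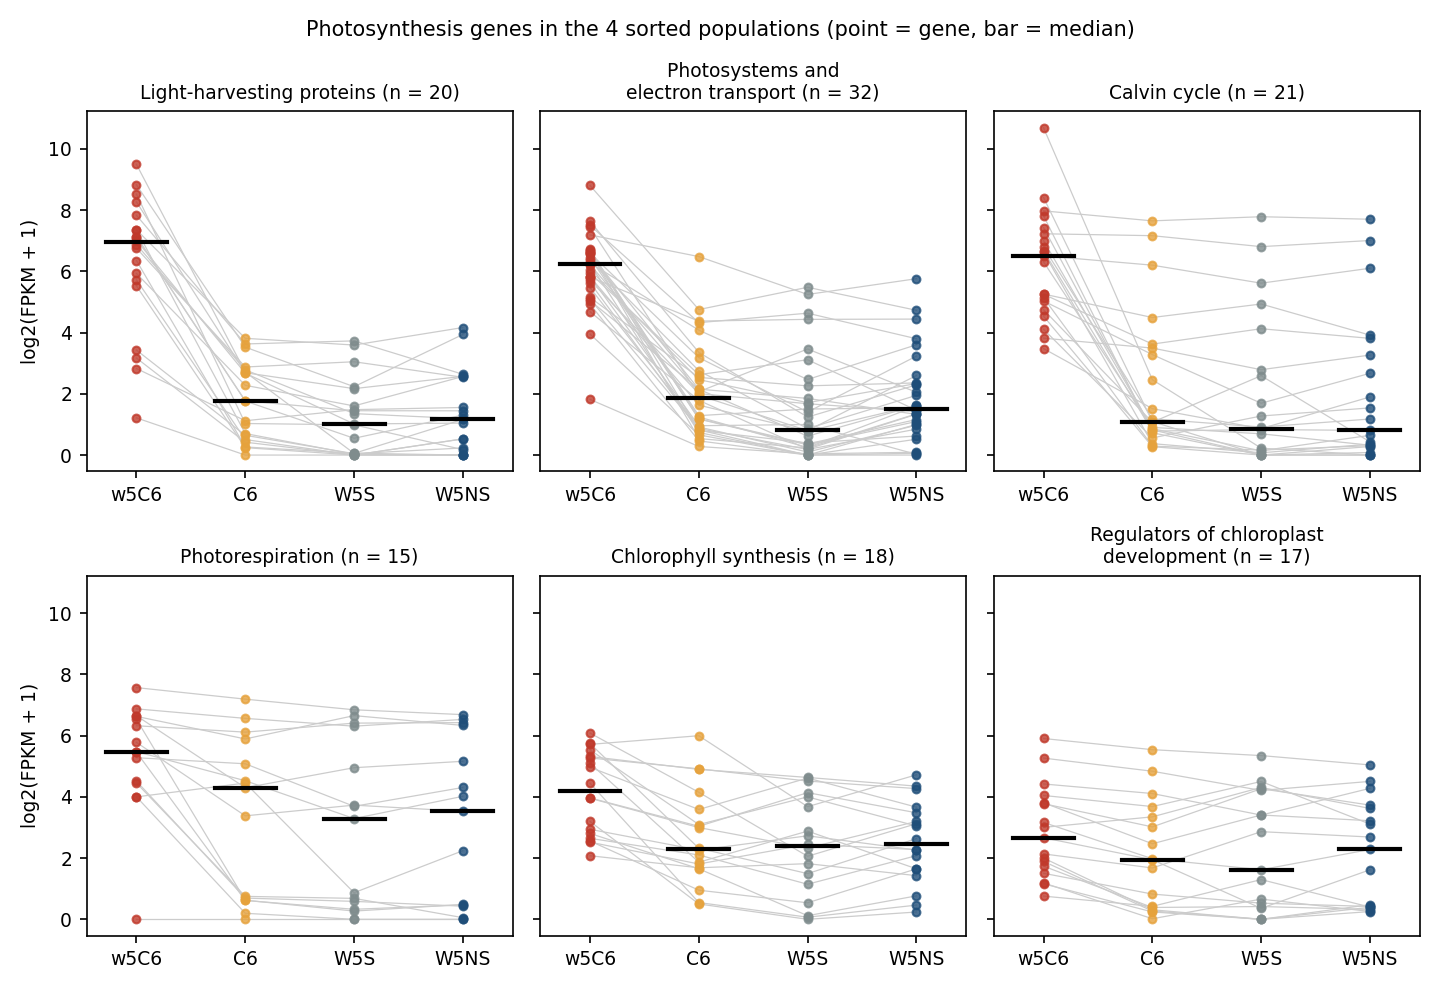
Values of the genes of 6 lists in each sorted population, on a log2(FPKM + 1) axis, with 1 point per gene, grey lines joining the values of a gene and a black bar at the list median. The light-harvesting, photosystem and Calvin cycle genes stand highest in w5C6, while the regulators of chloroplast development have medians of 5.34 FPKM in w5C6, 2.85 in C6, 2.07 in W5S and 3.86 in W5NS.

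The Calvin cycle list was divided. Of its 21 members 14 were higher in w5C6, and its median log2 ratio was 4.54. RBCS1A, which encodes a small subunit of Rubisco, had the highest value of all photosynthesis genes at 1651 FPKM in w5C6, with 4.51 in C6 and 0.169 in W5S, and was listed at 0 in W5NS. The other small subunit genes, which are close copies of one another, were at 340 FPKM (RBCS3B), 224 FPKM (RBCS2B) and 97.7 FPKM (RBCS1B) in w5C6 and at 0.28 FPKM or less in W5NS. Rubisco activase, RCA, was at 109 FPKM in w5C6 and 1.26 FPKM in W5NS. GAPA, a subunit of the NADPH-dependent glyceraldehyde 3-phosphate dehydrogenase of chloroplasts, was 82.2-fold higher in w5C6, at 127 FPKM against 0.563 FPKM in W5NS. Phosphoribulokinase, PRK, was at 25.8 FPKM in w5C6, 1.10 in C6, 5.03 in W5S and 0.348 in W5NS.

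The other 7 members were not called, and 4 of them, RPI3, PGK1, FBA3 and TIM, were within 1.47-fold. The plastid aldolase genes show the contrast within one family. FBA2 had 171 FPKM in w5C6 and 0.213 FPKM in W5NS, and FBA1 had 101 FPKM in w5C6 and 0.747 FPKM in W5NS. FBA3 in turn had 251 FPKM in w5C6, 200 in C6, 220 in W5S and 208 in W5NS, so that it was abundant everywhere and differed by 1.21-fold. PGK1, a phosphoglycerate kinase whose row also names the gene ID AT3G12800, was 1.33-fold higher in w5C6, with 67.7 FPKM in W5NS, and TIM, a triose phosphate isomerase, was at 149 FPKM in w5C6 and 128 FPKM in W5NS. For FBA3 and TIM the direction turns when both populations are scaled to the same nuclear sum. Of the ferredoxin genes, FD2 was 6.39-fold higher in w5C6, and FD1 was at 145 FPKM in w5C6 and 53.2 FPKM in W5NS, a 2.70-fold difference.

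Photorespiration, which recycles the product that Rubisco forms with oxygen, runs through chloroplasts, peroxisomes and mitochondria. Here 6 of 15 members were higher in w5C6, beside 1.20% of all loci, none was lower, and the median log2 ratio was 1.49. GOX1, a peroxisomal glycolate oxidase, was at 91.5 FPKM in w5C6, 0.541 in C6, 0.205 in W5S and 0.399 in W5NS. HPR, the peroxisomal hydroxypyruvate reductase, was at 43.0 FPKM in w5C6 and 0.387 FPKM in W5NS, and GDCH, an H protein of the glycine decarboxylase complex, was at 21.8 FPKM in w5C6 and 0.346 FPKM in W5NS. AGT, the serine to glyoxylate aminotransferase, was at 15 FPKM in w5C6 and listed at 0 in W5NS. SHM1, the mitochondrial serine hydroxymethyltransferase of leaves, was at 53.9 FPKM in w5C6 and 10.5 FPKM in W5NS, a call that ends under the same nuclear sum. Its relative SHM2 was at 79.1 FPKM in w5C6 and 85.0 FPKM in W5NS, and GLDP2, a P protein of glycine decarboxylase, was at 116 FPKM in w5C6 and 91.4 FPKM in W5NS. PGLP1 was listed at 0 in all populations, which may be a failed estimate.

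**Figure D2:**
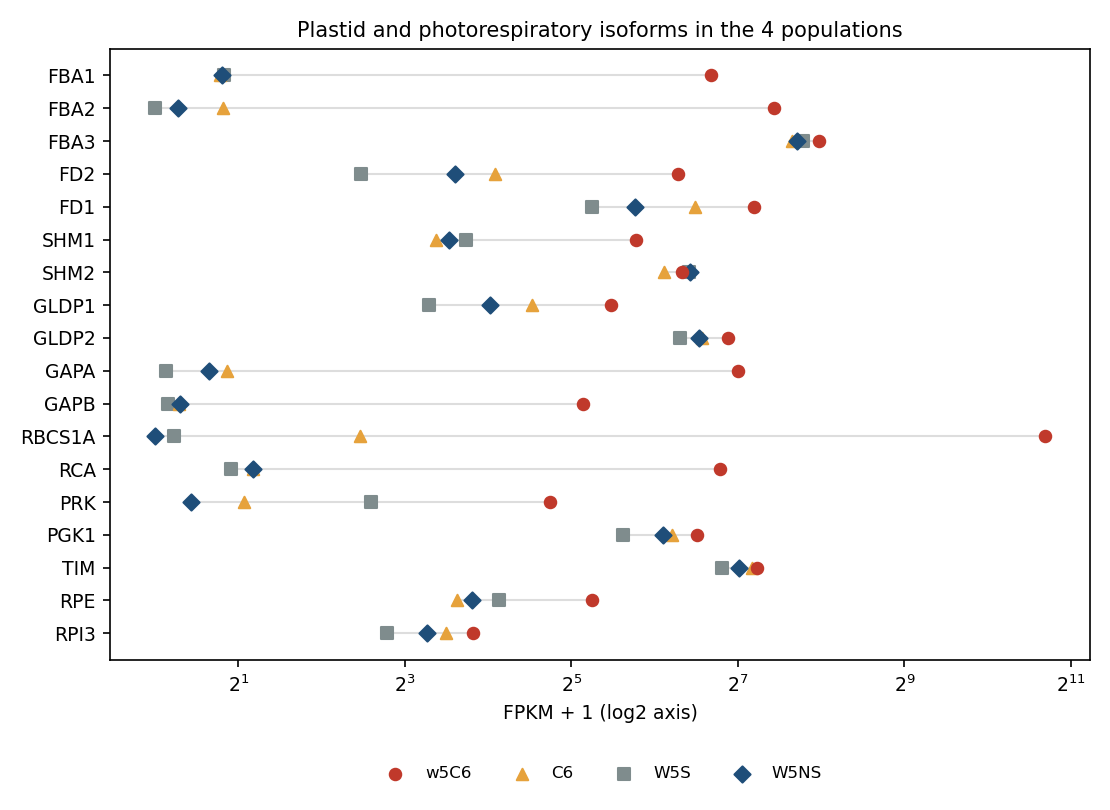
FPKM + 1 on a log2 axis for 18 enzyme and electron carrier genes, 1 row per gene and 1 marker per population. FBA1, FBA2, GAPA, GAPB, RBCS1A and RCA have w5C6 markers far to the right of the other populations, while the markers of FBA3, SHM2, GLDP2 and TIM lie close together.

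In chlorophyll synthesis 5 of 18 members were higher, beside 1.20% of all loci, and none was lower. All 18 ratios were above 0, and the median log2 ratio was 1.00. The called members were GUN4 and GUN5, which act in magnesium insertion, CHLM and CRD1, which carry out the following methylation and ring closure, and CHLP, which makes the phytyl side chain. GUN4 was at 20.8 FPKM in w5C6, 0.462 in C6, 0.0487 in W5S and 0.379 in W5NS, and CRD1 was 8.62-fold higher in w5C6, at 52.6 FPKM against 5.22 FPKM in W5NS. HEMA1 and GSA1, which make the tetrapyrrole precursor used also for heme, were not called. HEMA1 was at 38.9 FPKM in w5C6 and 19.4 FPKM in W5NS, and GSA1 was at 37.6 FPKM in w5C6 and 18.3 FPKM in W5NS. Late steps were not called either, with PORC, of the light-dependent step, at 8.17 FPKM in w5C6 and 0.18 FPKM in W5NS, below the 10 FPKM limit, and CHLG, the chlorophyll synthase, at 14.5 FPKM in w5C6 and 8.16 FPKM in W5NS.

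No regulator of chloroplast development was called of 17, beside 1.20% higher and 0.416% lower among all loci. Only 7 of them reached 10 FPKM in either population, so the others could not be called. Of the 17 ratios 15 were above 0 and 2 below, and the median log2 ratio was 0.86. GLK2, a factor that switches on photosynthesis genes, was at 15.5 FPKM in w5C6, 11.9 in C6, 21.7 in W5S and 7.64 in W5NS. Its relative GLK1 was at 2.71 FPKM in w5C6 and 0.312 FPKM in W5NS. HY5, a bZIP factor of light signalling, was at 37.5 FPKM in w5C6 and 21.7 FPKM in W5NS, and GNC, a GATA factor of greening, was at 2.33 FPKM in w5C6 and 0.25 FPKM in W5NS.

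The chloroplast-encoded loci were also more abundant in w5C6, by a smaller factor. Of 130 such loci 24 were higher, beside 1.20% of all loci, and none lower. Of the ratios 92 were above 0 and 12 below, and the median log2 ratio was 0.76. They summed to 20587 FPKM in w5C6, 10345 in C6, 8716 in W5S and 9822 in W5NS, which is 2.27% of all FPKM in w5C6 and 1.35% in W5NS. ATCG01020 was at 1916 FPKM in w5C6 and 457 FPKM in W5NS, and ATCG00220 was at 653 FPKM in w5C6 and 120 FPKM in W5NS. The tables used here do not pair these IDs with gene names.

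Most genes of the shoot identity list were low in all populations. The list holds mostly developmental regulators, as of meristems, organ boundaries, flowers and stomata, and not general markers of green tissue. Of the 20 shoot identity genes 15 had ratios above 0 and 4 below, with a median log2 ratio of 0.32, but only STM reached 10 FPKM in w5C6 or W5NS, so that the other 19 could not be called. They summed to 41.1 FPKM in w5C6, 25.2 in C6, 43.7 in W5S and 44.9 in W5NS. STM, the homeodomain factor of the shoot meristem, was called, 6.90-fold lower at 2.07 FPKM in w5C6. Without STM the list summed to 39.0 FPKM in w5C6, 24.3 in C6, 17.2 in W5S and 24.7 in W5NS. The 3 members listed at 0 in w5C6 were the organ boundary genes CUC2 and CUC3 and the floral regulator LFY. In C6 3 members were listed at 0, in W5S 7 and in W5NS 2. Most members ran the other way, and the highest value of the list in w5C6 was 8.86 FPKM. The part of shoot tissue in the photosynthesis values was not tested. Of the 20 seed maturation genes 13 had ratios above 0 and 5 below, and the only one that reached 10 FPKM was called lower, AT3G53040, annotated as a late embryogenesis abundant protein, at 15.1 FPKM in w5C6 and 185 FPKM in W5NS.

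Turning to the stem cell niche, 1 of 31 regulators was higher in w5C6 and 7 were lower, with a median log2 ratio of -0.62, beside 0.416% of all loci lower. The lower members were WOX5, WIP4, WIP5, NTT, IAA33, FEZ and SMB. WIP5, WIP4 and NTT are zinc finger factors needed to set up the root meristem in the embryo. WIP5 was at 0.287 FPKM in w5C6, 1.12 in C6, 68.8 in W5S and 57.0 in W5NS. WIP4 was at 1.51 FPKM in w5C6, 2.64 in C6, 86.8 in W5S and 68.7 in W5NS, and NTT was at 3.21 FPKM in w5C6, 5.56 in C6, 56.4 in W5S and 51.5 in W5NS. For each of the 3, both populations sorted with the CYCD6;1 reporter were low and both populations of the WOX5 reporter line were high. FEZ, which promotes divisions of root cap stem cells, was at 3.60 FPKM in w5C6, 4.39 in C6, 24.9 in W5S and 52.8 in W5NS, and its antagonist SMB, a factor of root cap maturation, was at 16.9 FPKM in w5C6 and 72.2 FPKM in W5NS.

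PLETHORA factors set the extent of the meristem in a graded manner, and the 6 measured ones had ratios below 0 in w5C6 without being called. PLT1 was at 59.7 FPKM in w5C6, 45.5 in C6, 172 in W5S and 151 in W5NS. PLT3 was at 42.1 FPKM in w5C6 and 146 FPKM in W5NS, and passes 4-fold lower under the same nuclear sum. PLT2 and BBM lay between 2.34-fold and 2.82-fold lower in w5C6. PLT5 was at 1.65 FPKM in w5C6 and 3.03 FPKM in W5NS, and PLT7 was at 1.37 FPKM in w5C6 and 2.82 FPKM in W5NS, both too low to be called.

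AN3, a transcriptional coactivator of the GROWTH-REGULATING FACTOR (GRF) proteins, was the niche regulator that was higher. It was at 161 FPKM in w5C6, 184 in C6, 89.0 in W5S and 26.8 in W5NS, a 5.82-fold difference between w5C6 and W5NS. In its family list of 12, AN3 alone was called, beside 1.20% higher among all loci. GRF4, one of its partner factors, was at 13.9 FPKM in w5C6 and 4.40 FPKM in W5NS, and its paralog GIF2 was at 47.6 FPKM in w5C6 and 49.8 FPKM in W5NS.

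SCR and 4 genes that act with SHR and SCR had ratios above 0 without being called. SHR itself was lower in w5C6, as given above, but stayed below 10 FPKM in both populations and could not be called. SCR was at 47.6 FPKM in w5C6, 48.9 in C6, 30.9 in W5S and 17.4 in W5NS, a 2.64-fold difference. The zinc finger partners MGP, NUC and JKD and the GRAS factor SCL3 lay between 1.71-fold and 3.57-fold higher in w5C6. MGP, a direct target of SHR, had the largest ratio at 30.3 FPKM in w5C6 and 7.76 FPKM in W5NS. The 5 genes were put together after their values were seen.

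**Figure D3:**
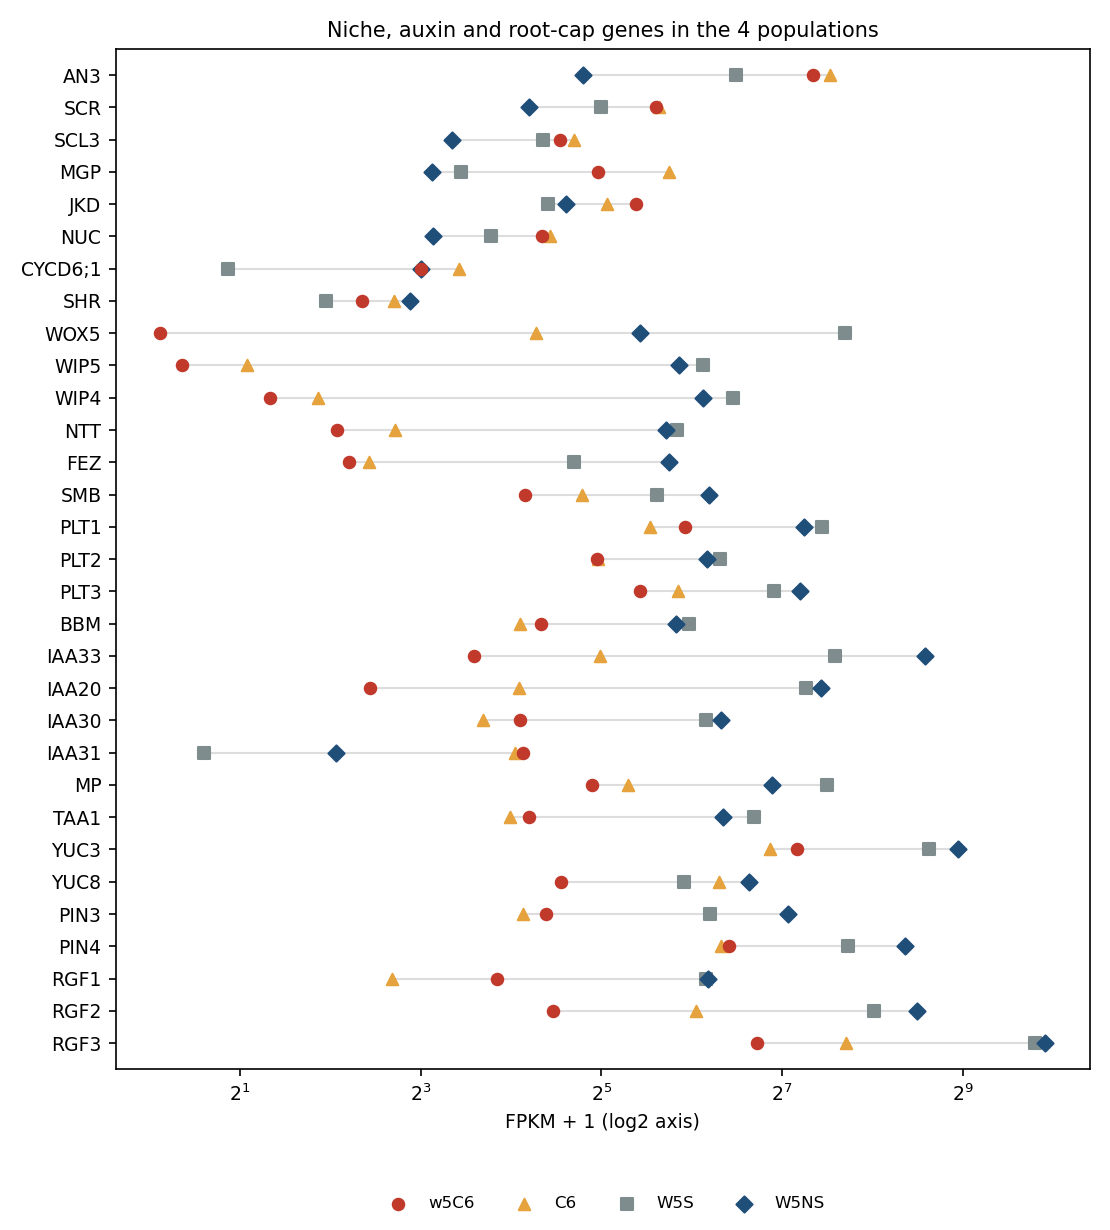
FPKM + 1 on a log2 axis for 31 niche, auxin and peptide genes, 1 row per gene and 1 marker per population. From WOX5 down to RGF3 nearly all w5C6 markers lie to the left of the W5NS markers, with IAA31 the exception, while AN3, SCR, SCL3, MGP, JKD and NUC lie to the right.

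Other WOX genes differed in direction. WOX7 was at 29.1 FPKM in w5C6, 28 in C6, 0.107 in W5S and 5.70 in W5NS, 4.49-fold higher in w5C6, a call that ends under the same nuclear sum. WOX11, known from founder cells of adventitious roots, was at 7.88 FPKM in w5C6 and 54.0 FPKM in W5NS, and WOX12 was at 11.7 FPKM in w5C6 and 46.0 FPKM in W5NS and was not called. WOX5, WOX7 and WOX11 were the 3 members called of 15, 1 higher and 2 lower. Among all loci 1.20% were higher and 0.416% lower.

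Auxin synthesis, transport and response held several lower genes and few higher ones. Auxin gathers at the quiescent center and in the young root cap, where it is made from tryptophan by TAA1 and the YUCCA enzymes and is moved by PIN efflux carriers. In the synthesis list 2 of 14 genes were lower, beside 0.416% of all loci, and none higher. TAA1 was at 17.4 FPKM in w5C6, 14.9 in C6, 102 in W5S and 80.1 in W5NS, and YUC8 was at 22.6 FPKM in w5C6, 78.1 in C6, 59.4 in W5S and 98.6 in W5NS. YUC3, the most abundant of them, was at 143 FPKM in w5C6 and 491 FPKM in W5NS, and was not called at 3.42-fold.

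Among 18 transport genes PIN3 alone was called, as lower, beside 0.416% of all loci. PIN3, a carrier of the columella, was at 20.0 FPKM in w5C6, 16.6 in C6, 72.8 in W5S and 133 in W5NS, and PIN4 was 3.86-fold lower in w5C6, at 83.9 FPKM against 327 FPKM in W5NS. PIN2, a carrier of the outer tissues, was at 63.0 FPKM in w5C6 and 81.4 FPKM in W5NS, and the influx carrier AUX1 was at 94.8 FPKM in w5C6 and 138 FPKM in W5NS. No auxin receptor or AUXIN RESPONSE FACTOR gene was called of 21, beside 1.20% higher and 0.416% lower among all loci. MP, the response factor of embryonic root and vascular formation, came closest at 28.8 FPKM in w5C6, 38.1 in C6, 180 in W5S and 117 in W5NS. It passes 4-fold lower under the same nuclear sum.

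Of 29 Aux/IAA genes, which encode repressors of auxin response, 4 were lower and 1 was higher. Among all loci 0.416% were lower and 1.20% higher, and the list's median log2 ratio of 0.10 was close to theirs. IAA33 was at 11.1 FPKM in w5C6, 30.7 in C6, 192 in W5S and 382 in W5NS, and IAA20 was at 4.44 FPKM in w5C6, 16.1 in C6, 152 in W5S and 172 in W5NS, both 31.7-fold lower in w5C6. IAA30 was at 16.1 FPKM in w5C6 and 79.2 FPKM in W5NS. The gene that was higher, IAA31, had 16.5 FPKM in w5C6, 15.5 in C6, 0.517 in W5S and 3.17 in W5NS, and its call ends under each of the 3 other scalings. IAA20, IAA30 and IAA33 encode atypical members that lack the motif through which the TIR1 receptor binds Aux/IAA proteins. The fourth lower member, IAA27, carries that motif and was at 0.284 FPKM in w5C6, 0.471 in C6, 0.519 in W5S and 10.7 in W5NS. Typical members of high abundance were near equal, as IAA17 at 426 FPKM in w5C6 and 306 FPKM in W5NS and IAA9 at 192 FPKM in w5C6 and 210 FPKM in W5NS.

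Root meristem growth factor (RGF) genes encode sulfated peptides that maintain the meristem through the PLETHORA proteins. Of 11 genes of the list 3 were lower, beside 0.416% of all loci, none was higher, and the median log2 ratio was -1.34. RGF2 was at 21.1 FPKM in w5C6, 65.1 in C6, 259 in W5S and 358 in W5NS. RGF3 was at 105 FPKM in w5C6, 207 in C6, 889 in W5S and 964 in W5NS, and RGF1 was at 13.4 FPKM in w5C6, 5.41 in C6, 70.2 in W5S and 71.6 in W5NS. RGF4 ran the other way without being called, 1.80-fold higher in w5C6 with 49.6 FPKM in W5NS. TPST, the enzyme that sulfates the peptides, was at 16.6 FPKM in w5C6 and 47.5 FPKM in W5NS.

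Root cap and starch genes were on the low side. Columella cells of the root cap store starch as gravity sensors. Of 11 root cap genes FEZ, SMB, PIN3 and ARL2 were lower, beside 0.416% of all loci, and none was higher. ARL2, which acts in gravity signalling, was at 4.43 FPKM in w5C6, 2.68 in C6, 33.7 in W5S and 34.9 in W5NS. The cap maturation factors BRN1 and BRN2 did not follow, with BRN1 at 42.8 FPKM in w5C6 and 33.3 FPKM in W5NS. Of 21 starch genes 19 had a ratio below 0 and 2 were called lower, beside 0.416% of all loci. The median log2 ratio was -0.79. GBSS1, the granule-bound starch synthase that makes amylose, was at 4.77 FPKM in w5C6, 4.3 in C6, 44.2 in W5S and 56.3 in W5NS, and APL4, a large subunit of ADP-glucose pyrophosphorylase, was at 8.02 FPKM in w5C6 and 50.2 FPKM in W5NS. APL1, the subunit known from leaves, was at 6.76 FPKM in w5C6 and 1.90 FPKM in W5NS. In sorted populations, fewer cells of a type and less RNA per cell cannot be told apart.

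Vascular genes held 2 lower members of 25, beside 0.416% of all loci, and no higher one. ATHB8, a homeodomain-leucine zipper factor of the procambium, was at 1.61 FPKM in w5C6, 5.45 in C6, 29.9 in W5S and 32.5 in W5NS, and ACL5, the thermospermine synthase of developing xylem, was at 1.72 FPKM in w5C6 and 15 FPKM in W5NS. TMO5, which promotes divisions of vascular cells, was at 0.743 FPKM in w5C6 and 8.31 FPKM in W5NS, below the 10 FPKM limit. Of 17 phloem genes none reached 10 FPKM in either population.

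Endodermis genes were split by direction, with the genes of the Casparian strip itself on the lower side, in groups made after the values were seen. The list had 2 of 14 members lower, beside 0.416% of all loci, none higher and a median log2 ratio of -1.12. SCR, EN7, SCL3, MYB36, SGN3 and SGN1 were between 1.41-fold and 2.64-fold higher in w5C6 than in W5NS. MYB36, the factor that switches on the Casparian strip program, was at 16.3 FPKM in w5C6, 31.7 in C6, 16.7 in W5S and 6.88 in W5NS. The 8 genes of the Casparian strip itself, CASP1 to CASP5, ESB1, PER64 and LAC3, were between 1.93-fold and 6.47-fold lower in w5C6. CASP1, a membrane scaffold of the strip, was at 13.3 FPKM in w5C6, 389 in C6, 53.1 in W5S and 91.7 in W5NS, and CASP2 was at 5.79 FPKM in w5C6, 174 in C6, 31.8 in W5S and 35.1 in W5NS. For both genes w5C6 was the lowest population and C6 the highest. CO2, AT1G62510 and AT1G09750, used as markers of cortex, had ratios above 0, and AT1G62510 was called at 47.8 FPKM in w5C6, 13.6 in C6, 1.03 in W5S and 9.14 in W5NS, a call that ends under the same nuclear sum.

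**Figure D4:**
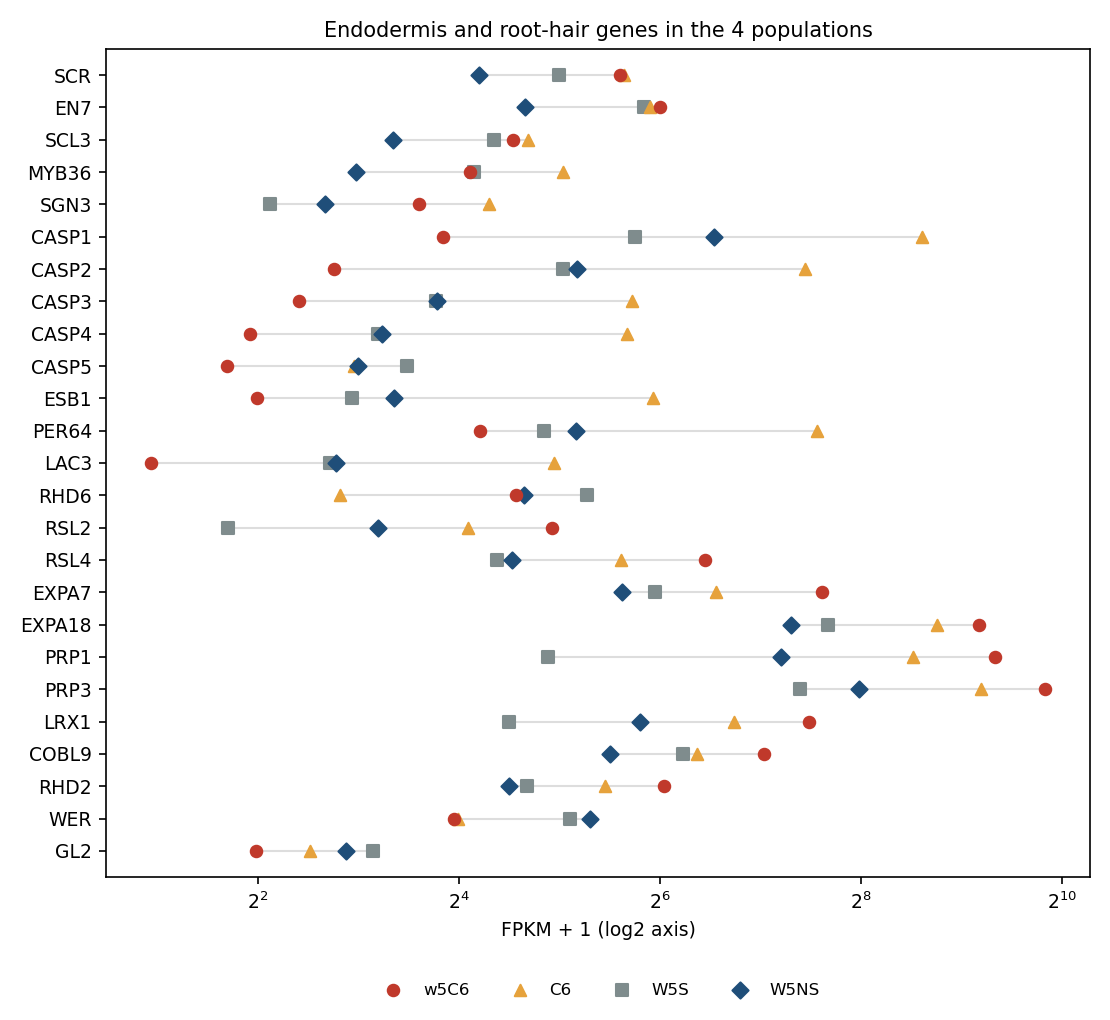
FPKM + 1 on a log2 axis for 25 endodermis and root hair genes, 1 row per gene and 1 marker per population. From CASP1 to LAC3 the w5C6 marker is leftmost and C6 is rightmost except for CASP5, and from RSL2 to RHD2 the w5C6 marker is rightmost.

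Epidermis genes separated hair growth from cell fate, again in groups made after the values were seen. The 9 genes RSL2, RSL4, COBL9, EXPA7, EXPA18, PRP1, PRP3, LRX1 and RHD2, which act in the growth of root hairs, were between 2.90-fold and 4.40-fold higher in w5C6. PRP1, a proline-rich wall protein, was the only gene called of the 23 on the list, beside 1.20% higher among all loci. It was at 646 FPKM in w5C6, 365 in C6, 28.5 in W5S and 146 in W5NS. Its call ends with 75th percentile scaling and under the same nuclear sum. RSL4, the factor that sets hair length, was at 86.1 FPKM in w5C6, 47.9 in C6, 19.8 in W5S and 22.1 in W5NS. EXPA18, a wall-loosening expansin of hairs, was at 575 FPKM in w5C6, 432 in C6, 204 in W5S and 157 in W5NS. The 11 fate regulators were split, 5 with ratios above 0 and 6 below, and none was called. WER, which specifies non-hair cells, was at 14.5 FPKM in w5C6 and 38.6 FPKM in W5NS, while TRY, a small MYB protein of hair patterning, was at 4.43 FPKM in w5C6 and 2.56 FPKM in W5NS. ETC3 was at 1.15 FPKM in w5C6 and listed at 0 in W5NS. The whole list of 23 summed to 2968 FPKM in w5C6, 1905 in C6, 781 in W5S and 931 in W5NS.

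Iron genes and cell surface genes added a few calls. Of 30 iron genes, FRO3 and bHLH39 were higher, beside 1.20% of all loci, and none was lower. FRO3, a ferric reductase, was at 34.1 FPKM in w5C6, 31.7 in C6, 3.94 in W5S and 5.01 in W5NS, and bHLH39, a factor of the iron deficiency response, was 6.05-fold higher in w5C6, with 4.25 FPKM in C6, 0.201 in W5S and 2.50 in W5NS. IRT2, an iron transporter, was not called at 3.98-fold, with 39.3 FPKM in w5C6 and 9.13 FPKM in W5NS, and the partner factor FIT was at 26.6 FPKM in w5C6 and 22.3 FPKM in W5NS. Of 18 fasciclin-like arabinogalactan proteins FLA6 alone was called, beside 1.20% higher among all loci. FLA6 was at 258 FPKM in w5C6, 199 in C6, 64.2 in W5S and 40.0 in W5NS. FLA10 was 3.81-fold lower, at 26.3 FPKM in w5C6 against 103 FPKM in W5NS. In the cytokinin list LOG1, an enzyme that releases active cytokinin, was the only call of 41, beside 1.20% higher among all loci, at 10.9 FPKM in w5C6 and 0.424 FPKM in W5NS, and it drops under 10 FPKM when both populations have the same nuclear sum.

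Most cell division genes were near equal, as were most loci that reached 10 FPKM. None of 22 mitosis genes was called, beside 1.20% higher and 0.416% lower among all loci. All 20 of those that reached 10 FPKM were within 2-fold, beside 83.0% of all loci that did. The median log2 ratio was -0.04. CYCB1;1, a mitotic cyclin, was at 18.6 FPKM in w5C6 and 21.5 FPKM in W5NS, and KNOLLE, the syntaxin of cell plates, was at 30.1 FPKM in w5C6 and 33.6 FPKM in W5NS. None of 18 replication genes was called, and 14 of the 15 that reached 10 FPKM were within 2-fold. MCM2 was at 37.7 FPKM in w5C6 and 35.1 FPKM in W5NS. Among 23 D-type cyclins and inhibitors of cyclin-dependent kinases, KRP7 alone was called, as lower, beside 0.416% of all loci. It was at 8.67 FPKM in w5C6, 10.7 in C6 and 43.2 in W5NS. CYCD3;3 was 3.20-fold lower without being called, at 16.8 FPKM in w5C6 and 55.9 FPKM in W5NS.

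Of 25 markers of wounding, heat and touch, which protoplasting can raise, none was called, beside 1.20% higher and 0.416% lower among all loci. Their ratios were above 0 for 19 and below 0 for 6, with a median log2 ratio of 0.34. The list summed to 2927 FPKM in w5C6, 4682 in C6, 2341 in W5S and 2397 in W5NS. JAZ1, a repressor induced by jasmonate, was at 485 FPKM in w5C6 and 476 FPKM in W5NS, and TCH3, a touch-induced calmodulin-like gene, came closest at 68.7 FPKM in w5C6 and 16.7 FPKM in W5NS. The part of these genes in the differences above was not tested.

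**Figure D5:**
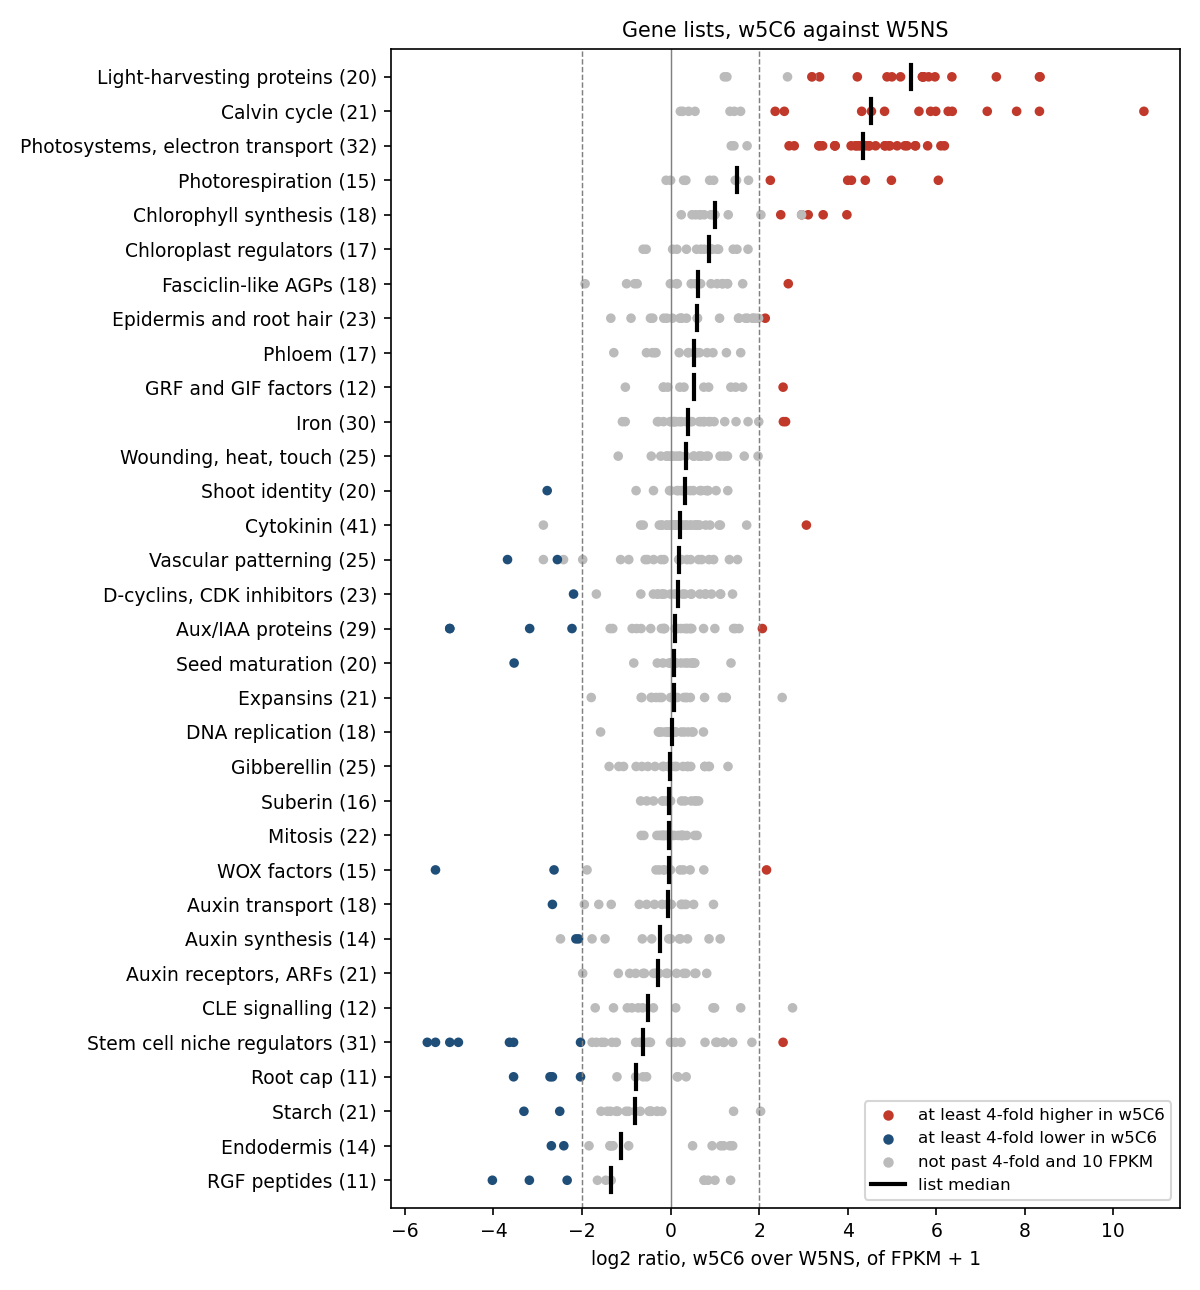
Log2 ratio of FPKM + 1, w5C6 over W5NS, for the members of 33 gene lists ordered by their medians, with the number of members in brackets, 1 point per gene and a black bar at each list median. Dashed lines mark 4-fold. The 3 lists at the top have medians between 4.35 and 5.44, and the RGF list at the bottom has a median of -1.34.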

How the data were processed

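RNA of the sorted protoplasts was made into libraries with the SMART-Seq v3 low-input kit, 4 per population. The deposited FPKM values were made by the authors in TuxNet, from fastq-mcf trimming, HISAT2 alignment and Cufflinks estimates pooled to 1 value per locus and population. Tool versions, build and gene models are not stated in the sources used here, and the unit was inferred from Cufflinks and from the values. It also holds log2 folds and q-values of 6 comparisons made by the authors, which were not used. Populations were therefore compared by log2 ratios of FPKM + 1, with a pseudocount of 1, a 4-fold limit and a minimum of 10 FPKM in the higher population. The calling functions were run on simulated data in which abundant loci were changed by known folds beyond the limit. This cannot show how calls near 10 FPKM or with spread between libraries behave. Gene lists were matched by symbol or gene ID to RefSeq names of TAIR10.1, 660 nuclear loci in all, and 282 loci of the table name several gene IDs. A naming rule took the 15 loci with the largest ratios in each direction and all called list members. It also took up to 4 further members per list of high abundance. Only a part of the genes taken by this rule is printed, and LHCB2.1 and GAPA-2 are among those left out. Further genes were added with their values already known. The members and lists were chosen with earlier results of these data known. No coordinates or sequences are printed, since the build is not given. Pseudocount, minimum, fold limit, scaling and the loci kept were varied. Python 3.11.15, pandas 2.3.3 and numpy 2.4.6 were used.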

Additional observations from a re-analysis of the deposited data

How the results depend on the processing

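The counts of called loci depended on the rule. None of the 115 called genes that the rule names turned its direction, but this was settled beforehand. Pseudocount, fold limit and minimum cannot turn a ratio, and the scalings shift ratios by much less than 4-fold. Other called loci, as those of the organelles, were not followed singly. For the 400 higher and 138 lower loci, a pseudocount of 5 gave 187 and 66, an 8-fold limit gave 134 and 41, a 2-fold limit gave 1578 and 498, and the same sum over nuclear loci gave 257 and 211. A minimum of 1 FPKM, or no minimum, gave 647 higher loci and 186 lower ones. Under the other alternatives (pseudocount 0.1, scaling by the median or the 75th percentile, leaving out loci with several gene IDs or listed at 0 in 1 of the 2 populations) the counts stayed between 324 and 508 higher and between 133 and 165 lower. Scaling to the same nuclear sum moved the median log2 ratio of all loci to 0 (0.11 before), and the medians of the Aux/IAA, vascular, replication and D-type cyclin lists were then below 0. Among genes short of the limit in the main setting, MP, PIN4, PLT3, YUC3, WOX12 and FLA10 then pass 4-fold lower. Of the 115 called genes that the rule names, 6 were no longer called under some scaling (IAA31, WOX7, LOG1, PRP1, SHM1 and AT1G62510), 19 with a pseudocount of 5 (5 of those 6, and IAA27, IAA30, KRP7, YUC8, TAA1, SBPASE, CP12-1, CASP2, bHLH39, FRO3, SMB, FNR2, STM and ACL5) and 29 with the 8-fold limit. No paired analysis was possible because the table holds 1 pooled value per population, and for the same reason no replicate could be left out. Depth is unknown, so a locus listed at 0 may have been missed in libraries made from little RNA.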

Other observations

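Further loci outside the gene lists were among the calls, and are named here after their values were seen. CA2, a carbonic anhydrase, was at 64.3 FPKM in w5C6, 0.686 in C6, 1.74 in W5S and 1.38 in W5NS, ACP4, an acyl carrier protein, was at 54.1 FPKM in w5C6 and 1.23 FPKM in W5NS, and GLU1, the ferredoxin-dependent glutamate synthase of leaves, was at 13.5 FPKM in w5C6 and 0.38 FPKM in W5NS. AT3G17100, annotated as a DNA-binding transcription factor, was at 46.6 FPKM in w5C6, 45.6 in C6, 0.046 in W5S and 0.495 in W5NS. PDF2.5, of the plant defensin family, was at 317 FPKM in w5C6, 634 in C6, 46.9 in W5S and 10.6 in W5NS, and MIPS3, a myo-inositol phosphate synthase, was at 72.6 FPKM in w5C6, 72.6 in C6, 3.91 in W5S and 8.71 in W5NS. GATA19, a GATA factor, was at 50.8 FPKM in w5C6, 73.2 in C6, 3.74 in W5S and 9.20 in W5NS.

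Root hair genes outside the lists were called as well, as RHS13 at 335 FPKM in w5C6, 186 in C6, 21.0 in W5S and 65.2 in W5NS, and XTH13, a xyloglucan endotransglucosylase, at 187 FPKM in w5C6 and 38.0 FPKM in W5NS. Among the lower loci, MRD1 was at 1.79 FPKM in w5C6, 1.56 in C6, 81.2 in W5S and 71.4 in W5NS, the dehydrin AT4G38410 was at 30.2 FPKM in w5C6, 50.1 in C6, 514 in W5S and 434 in W5NS, and PHYA, the phytochrome A photoreceptor, was at 39.8 FPKM in w5C6, 51.9 in C6, 148 in W5S and 200 in W5NS. Of 141 mitochondrion-encoded loci 4 were higher and none lower, beside 1.20% higher among all loci. They summed to 5766 FPKM in w5C6, 5191 in C6, 1930 in W5S and 1550 in W5NS, of which ATMG00030 alone made up 4578 FPKM in w5C6, 4220 in C6, 1369 in W5S and 1077 FPKM in W5NS. Of the 9 precursors of microRNAs among the higher loci, MIR160a was at 19.0 FPKM in w5C6 and listed at 0 in C6, W5S and W5NS. MIR319a was 12.9-fold lower in w5C6 than in W5NS, at 0.487 FPKM in w5C6, 12.2 in C6 and 7.79 in W5S.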
